A study of Mus musculus with 24 samples.

Results

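Immunoglobulin heavy chain variable (Ighv) segments were taken from the gene count table as the rows whose symbol starts with Ighv and whose counts, summed over all 24 libraries, were 100 or more. This gave 83 of 185 Ighv rows, out of 55487 genes listed. Macrophages grown from mouse bone marrow, Tmem175-/- or WT, were co-cultured with lymphocytes from the spleens of mice that carried B16-F10-OVA tumours, a melanoma line that makes the model antigen ovalbumin. Each macrophage genotype was cultured in 4 ways, with 3 libraries each: without added antigen, with B16-F10-OVA tumour cell antigen, with antigen and IL-1beta at 500 pg/ml, and with antigen and IL-18 at 500 pg/ml. Tmem175 encodes a potassium and proton channel of lysosomes. The genotype named by the labels is that of the macrophages. The labels do not give the genotype of the lymphocytes, nor whether replicates came from separate mice or cultures, so p-values measure only the spread between these libraries, which may be technical. Tmem175 RNA was at 14.1 to 15.03 counts per 1000000 library counts (CPM) in Tmem175-/- libraries without antigen, against 24.4 to 26.1 CPM in WT libraries without antigen, so its RNA was lower but still counted. The genotype field of 11 of the 12 Tmem175-/- samples names another gene, and the groups follow the sample titles.

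A B cell builds its heavy chain by joining 1 variable, 1 diversity and 1 joining segment in front of the constant region genes, and the variable segment supplies most of the antigen-binding surface. Naive B cells keep the Ighm and Ighd constant regions, and class switching replaces them with Ighg, Igha or Ighe. Plasma cells carry very large amounts of antibody RNA, so the segments counted in bulk RNA are weighted by RNA and not by cells. The segments were chosen by their summed counts, and the threshold was met mostly through the Tmem175-/- libraries. All 83 segments had 100 or more counts in the 12 Tmem175-/- libraries alone, and 8 had that many in the 12 WT libraries alone. Those 8 are Ighv1-26, Ighv11-2, Ighv1-85, Ighv5-17, Ighv3-6, Ighv1-15, Ighv1-80 and Ighv1-39. Just above the threshold stood Ighv2-4 with 109 counts, Ighv8-5 with 126 and Ighv2-6-8 with 136. Just below it stood Ighv2-6 with 79, Ighv1-43 with 77 and Ighv12-3 with 68. The 102 rows left out comprised 58 without a count in any library and 44 with 1 to 99 counts, and the 83 segments held 99.6% of all Ighv counts. All 83 are annotated as V genes, and none of the 70 rows annotated as pseudogenes reached the threshold.

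The coding sequences of the segments on which the results turn are shown from base 58, after the stretch that begins with the signal peptide, to the 3′ end of the segment. They were read from GENCODE vM21 transcripts (GRCm38) on the minus strand of chromosome 12. Ighv1-26 was the most used segment in all 12 WT libraries, and its nearest relative Ighv1-18 is printed beside it with the differing bases of both in capitals. The pair differs at 8 of the 294 bases printed and at 11 over the whole coding sequence.
Ighv1-26: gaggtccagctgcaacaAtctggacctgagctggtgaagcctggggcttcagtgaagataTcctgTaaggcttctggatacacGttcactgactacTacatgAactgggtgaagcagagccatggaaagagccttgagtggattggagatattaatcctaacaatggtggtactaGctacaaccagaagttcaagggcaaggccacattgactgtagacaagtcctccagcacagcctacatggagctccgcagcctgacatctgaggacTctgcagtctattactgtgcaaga
Ighv1-18: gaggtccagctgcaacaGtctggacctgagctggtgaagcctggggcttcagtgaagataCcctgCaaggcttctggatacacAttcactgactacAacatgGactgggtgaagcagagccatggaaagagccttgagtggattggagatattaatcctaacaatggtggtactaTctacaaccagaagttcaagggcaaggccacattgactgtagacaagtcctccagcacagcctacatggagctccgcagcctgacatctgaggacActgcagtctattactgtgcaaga

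Ighv11-2 is shown because its level and share differed between treatments in WT co-cultures. Its nearest relative is Ighv11-1, which differs at 4 of the 296 bases printed, again in capitals in both. Ighv11-1 itself had 3 counts over all Tmem175-/- libraries and 0 over all WT libraries, below the threshold.
Ighv11-2: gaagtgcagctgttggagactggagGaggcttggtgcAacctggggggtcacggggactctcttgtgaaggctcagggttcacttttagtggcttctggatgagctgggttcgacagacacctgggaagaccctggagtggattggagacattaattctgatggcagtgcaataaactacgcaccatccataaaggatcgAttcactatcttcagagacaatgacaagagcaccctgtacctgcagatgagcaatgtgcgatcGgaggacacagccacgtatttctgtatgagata
Ighv11-1: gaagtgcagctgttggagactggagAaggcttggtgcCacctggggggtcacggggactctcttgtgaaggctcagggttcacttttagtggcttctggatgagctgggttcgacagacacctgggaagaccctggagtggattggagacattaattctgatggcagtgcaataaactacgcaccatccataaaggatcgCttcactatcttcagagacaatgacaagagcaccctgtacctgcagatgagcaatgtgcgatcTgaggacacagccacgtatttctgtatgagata

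Ighv1-9 had the highest pooled share in Tmem175-/- libraries. The capitals mark the last in-frame TGT codon, the cysteine that ends the framework before the third antigen-binding loop, at base 343 of the coding sequence.
Ighv1-9: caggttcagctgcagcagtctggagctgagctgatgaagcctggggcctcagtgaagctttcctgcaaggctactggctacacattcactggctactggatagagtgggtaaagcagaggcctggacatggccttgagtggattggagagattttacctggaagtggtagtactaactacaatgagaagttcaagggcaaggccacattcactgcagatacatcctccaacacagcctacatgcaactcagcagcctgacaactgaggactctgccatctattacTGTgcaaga

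Ighv1-9 was identical to Ighv1-26 at 84.0% of bases over the whole coding sequence, and Ighv11-2 at 60.6%. Across the 83 segments the nearest relative among 110 Ighv coding sequences was identical at a median of 95.4% of bases, with a range of 76.5% to 99.7%, and 16 segments had a relative at 97% or more. How reads that match several segments were assigned is not given in the sources used here. Values of single segments with such close relatives, such as Ighv1-62-2 and Ighv1-71 with 1 difference between them, are therefore uncertain.

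The summed Ighv RNA differed widely between the genotypes and little between treatments. The 83 segments held 162382 counts in the Tmem175-/- libraries and 4326 in the WT libraries. They averaged 634 ± 125 CPM in Tmem175-/- co-cultures and 17.2 ± 2.88 CPM in WT co-cultures (SD, n = 12 each). The lowest, median and highest values were 453, 644 and 827 in Tmem175-/- libraries, against 12.5, 17.9 and 23.0 in WT libraries. The ranges are far apart, and the pooled ratio was 37.0. Since the threshold selected segments that are high in Tmem175-/- libraries, this total is a description without a test. In these bulk co-cultures fewer cells of a type and less RNA per cell cannot be told apart.

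**Figure D1:**
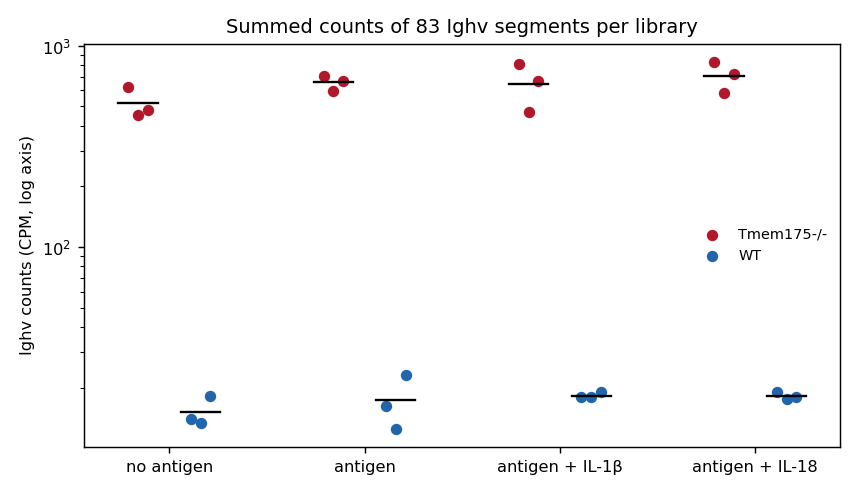
Summed level of the 83 Ighv segments in each library (CPM, log axis), in 4 culture conditions, with Tmem175-/- libraries left of WT libraries. Points are libraries and bars are means of 3. All Tmem175-/- libraries lie at 453 or above and all WT libraries at 23.0 or below.

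By treatment, the total averaged 518 ± 90.0 CPM without antigen, 657 ± 57.5 with antigen, 648 ± 172 with antigen and IL-1beta and 711 ± 124 with antigen and IL-18 in Tmem175-/- co-cultures (SD, n = 3 each). In WT co-cultures it averaged 15.2 ± 2.64, 17.3 ± 5.31, 18.3 ± 0.613 and 18.2 ± 0.665 CPM in the same order. Within each genotype the ranges of the antigen and no-antigen libraries overlapped. The Tmem175-/- libraries without antigen had 621, 453 and 480 CPM in replicates 1, 2 and 3, and those with antigen had 709, 595 and 667. Each was thus higher with antigen than the library of the same number without it. In WT co-cultures replicates 1 and 3 were higher with antigen, and replicate 2 was lower, at 12.5 against 13.3 CPM. Whether the numbers pair the libraries is not given, and this difference was not tested. No single library accounted for the gap between genotypes.

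The share of each segment in the Ighv counts of its own library describes usage independently of the total. In Tmem175-/- libraries usage was spread over many segments, whereas in WT libraries a few segments, led by Ighv1-26, held a large part. Ighv1-26 took 5.59% ± 0.386 of Ighv counts in Tmem175-/- libraries and 16.8% ± 3.90 in WT libraries (SD, n = 12 each). Its lowest share in any WT library was 11.6% and its highest in any Tmem175-/- library was 6.59%. Pooled over libraries its share was 5.57% in Tmem175-/- (95% exact binomial interval 5.46% to 5.69%) and 16.6% in WT (15.5% to 17.8%). These intervals cover counting error only, and the reads are not known to be independent molecules.

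Of the 83 segments, 9 had a higher share in every Tmem175-/- library than in any WT library. For 5 segments every WT share was the higher, and the shares of the remaining 69 overlapped between the genotypes. The threshold was met mostly through the Tmem175-/- libraries, which favours the first kind, so nothing is read from these counts. Shares are defined among Ighv segments only, so no value over all tested genes stands beside them. Some other much used segments were also among those without overlap, in either direction. Ighv1-85 took 0.866% ± 0.153 in Tmem175-/- libraries and 4.75% ± 2.01 in WT libraries. Ighv5-17 took 1.43% ± 0.151 in Tmem175-/- libraries and 4.53% ± 2.17 in WT libraries. Both lay below every WT library in every Tmem175-/- library. On the other side, Ighv1-9 took 5.84% ± 0.386 in Tmem175-/- libraries and 1.55% ± 1.06 in WT libraries. Ighv9-3 took 4.64% ± 0.508 in Tmem175-/- libraries and 1.07% ± 0.716 in WT libraries. For this pair the lowest Tmem175-/- shares, 5.07% and 3.41%, lay above the highest WT shares, 4.32% and 2.70%.

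Other frequent segments overlapped between the genotypes. Ighv3-6 took 4.85% ± 0.462 in Tmem175-/- libraries and 3.78% ± 1.47 in WT libraries. Ighv1-80 took 3.50% ± 0.310 and Ighv1-22 took 2.64% ± 0.360 in Tmem175-/- libraries, against 2.58% ± 1.39 and 2.13% ± 1.15 in WT libraries. Ighv1-53 took 1.94% ± 0.288 in Tmem175-/- libraries and 2.24% ± 0.815 in WT libraries. Ighv14-2, Ighv8-12, Ighv1-81 and Ighv1-82 averaged 2.58% to 3.57% in Tmem175-/- libraries and 1.07% to 1.63% in WT libraries, and each was at 0 in at least 1 WT library. Ighv1-12 took 1.27% ± 0.209 in Tmem175-/- libraries and 2.32% ± 1.45 in WT libraries.

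**Figure D2:**
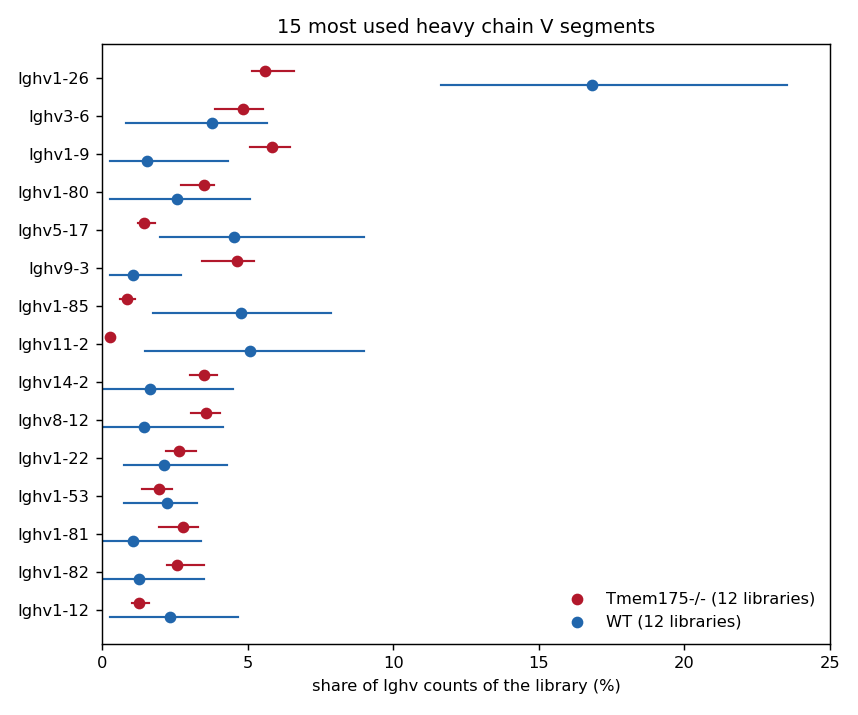
Share of Ighv counts (%) for the 15 segments with the highest mean share over 24 libraries. Points are means of 12 libraries and lines run from the lowest to the highest library, with Tmem175-/- above WT in each row. Ighv1-26 stands at 5.59% in Tmem175-/- and 16.8% in WT, and the WT lines are the longer ones.

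Among segments known for particular antibodies, Ighv11-2 encodes antibodies of B-1a cells that bind phosphatidylcholine. It took 0.257% ± 0.0621 of Ighv counts in Tmem175-/- libraries and 5.07% ± 2.76 in WT libraries. Ighv7-1, of the S107 family used by antibodies to phosphorylcholine, took 0.426% ± 0.0896 in Tmem175-/- libraries and 1.60% ± 0.764 in WT libraries. Ighv7-3 of the same family took 0.861% ± 0.209 in Tmem175-/- libraries and 0.471% ± 0.496 in WT libraries. Ighv1-72, the segment of the classical response to the hapten NP in C57BL/6 mice, took 1.80% ± 0.227 in Tmem175-/- libraries and 1.27% ± 0.748 in WT libraries. Ighv14-3 took 0.685% ± 0.123 in Tmem175-/- libraries and 1.09% ± 0.702 in WT libraries. Ighv2-2 took 1.38% ± 0.140 in Tmem175-/- libraries and 0.114% ± 0.144 in WT libraries, where 7 of 12 libraries had no count of it. Ighv11-2 and Ighv7-1 were lower in every Tmem175-/- library than in any WT library, and Ighv2-2 was higher. Ighv7-3, Ighv1-72 and Ighv14-3 overlapped.

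Over all segments the pooled share was higher in Tmem175-/- for 48 and higher in WT for 35. It was at least 2 times higher in Tmem175-/- for 29 segments and at least 2 times higher in WT for 18. The threshold favoured segments used in Tmem175-/- libraries, so nothing is read from these counts either. Ighv2-4 had 109 counts in Tmem175-/- libraries and none in WT libraries, where 0 counts allow a share of up to 0.0852% (upper bound of the exact binomial interval). Every segment was counted in every Tmem175-/- library. In WT libraries 60 of 83 segments were missing from at least 1 library, and the number detected ran from 50 to 63 per library. These libraries held 269 to 467 Ighv counts each, against 8643 to 17845 in Tmem175-/- libraries, so a segment missing from a WT library is not shown to be absent from it. At the same 269 counts, Tmem175-/- libraries were still expected to show more segments than WT libraries, as given with the evenness values.

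**Figure D3:**
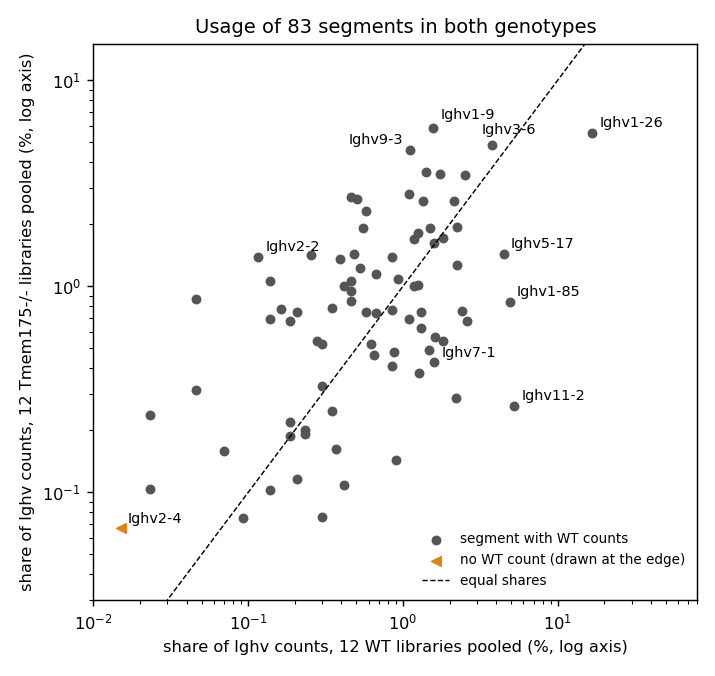
Pooled share of Ighv counts of each of the 83 segments in 12 Tmem175-/- libraries (vertical, log axis) against 12 WT libraries (horizontal, log axis). The dashed line marks equal shares, and the triangle at the left edge is Ighv2-4, which has no WT count. Ighv1-26, Ighv1-85, Ighv5-17, Ighv7-1 and Ighv11-2 lie on the WT side, and Ighv1-9, Ighv9-3 and Ighv2-2 on the Tmem175-/- side.

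Evenness was measured with estimates that correct for the number of counts if each count is an independent molecule. That is not known here, and how far it bears on the WT libraries, with their few counts, was not tested. The effective number of segments, the inverse of the chance that 2 counts belong to the same segment, averaged 40.0 ± 0.936 in Tmem175-/- libraries and 20.7 ± 4.75 in WT libraries (SD, n = 12 each). Tmem175-/- libraries ran from 38.0 over a median of 40.0 to 41.6, and WT libraries from 14.1 over a median of 21.3 to 30.02, with no overlap. Thinned to 269 counts, the expected number of segments was 64.2 ± 0.392 in Tmem175-/- libraries and 54.1 ± 2.23 in WT libraries.

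The gap in evenness depended on which segments were counted. Leaving out the top segment of each library gave 41.3 ± 0.942 in Tmem175-/- libraries and 32.8 ± 4.09 in WT libraries. Over only the 8 segments that reach 100 counts in WT libraries alone, the effective number was 4.53 ± 0.1697 in Tmem175-/- libraries and 4.62 ± 0.893 in WT libraries, which differ by less than the spread between libraries. Those 8 segments held 17.9% of pooled Ighv counts in Tmem175-/- and 42.6% in WT. The threshold itself favoured segments used in Tmem175-/- libraries. Over every Ighv row, without a threshold, the effective number was 40.3 ± 0.942 in Tmem175-/- libraries and 21.2 ± 4.91 in WT libraries. No test was made on these scores.

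**Figure D4:**
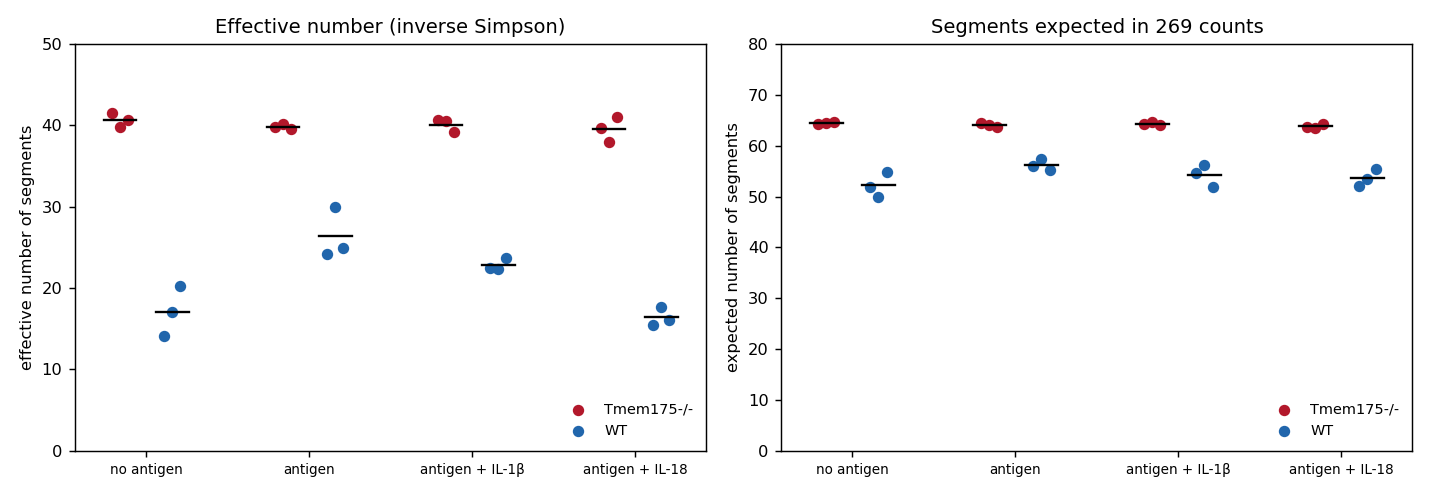
Left, effective number of Ighv segments per library; right, number of segments expected in 269 Ighv counts. Points are libraries, bars are means of 3, and Tmem175-/- libraries stand left of WT libraries. Tmem175-/- libraries lie at 38.0 to 41.6 on the left over the 4 conditions, and WT libraries at 14.1 to 30.02.

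Within Tmem175-/- co-cultures evenness hardly moved with treatment, with group means of 40.7 ± 0.871 without antigen, 39.8 ± 0.309 with antigen, 40.1 ± 0.811 with IL-1beta and 39.5 ± 1.51 with IL-18 (SD, n = 3 each). In WT co-cultures the means were 17.1 ± 3.07 without antigen, 26.4 ± 3.16 with antigen, 22.8 ± 0.725 with IL-1beta and 16.4 ± 1.15 with IL-18. The share of Ighv1-26 ran the opposite way in WT libraries, but this is no second observation, since the top segment weighs heavily in the effective number. Without the top segment of each library the WT means lay closer together. They were 33.0 ± 5.13 without antigen, 36.0 ± 2.92 with antigen, 30.8 ± 2.07 with IL-1beta and 31.4 ± 5.37 with IL-18. Ighv1-26 held 20.4%, 18.6% and 21.5% of Ighv counts in the WT libraries with antigen and IL-18, and 13.8%, 11.6% and 14.1% in those with antigen alone. It held 14.4%, 15.2% and 12.7% with antigen and IL-1beta, and 23.5%, 20.4% and 15.3% without antigen. The 3 IL-18 libraries lay above all 6 of the other antigen libraries, while those without antigen spread across the gap.

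Whole profiles were alike within a genotype and unlike between genotypes. The Morisita overlap, which is near 1 for equal profiles, had a median of 0.993 over 12 replicate pairs of Tmem175-/- libraries and 0.929 over 12 replicate pairs of WT libraries. Between Tmem175-/- libraries of different treatments the median was 0.990 where one had no antigen and 0.992 where both had antigen. The matching WT medians were 0.860 and 0.895. Between a Tmem175-/- and a WT library of the same treatment it was 0.593, with a range of 0.479 to 0.699 over 36 pairs. Chi-square per degree of freedom had a median of 3.09 for Tmem175-/- replicate pairs and 3.04 for WT replicate pairs. Replicates thus differed by more than counting error would give if each count were an independent molecule, which is not known. No library was a copy of another.

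By family, Ighv1, the large J558 group with 43 of the 83 segments, held 56.4% ± 0.939 of Ighv counts in Tmem175-/- libraries. In WT libraries it held 62.8% ± 5.39. The ranges overlapped, with the highest Tmem175-/- library at 57.5% and the lowest WT library at 55.6%. The family includes Ighv1-26, whose mean share differed between the genotypes by more than that of the family. The other segments of the family together thus had the higher mean share in Tmem175-/- libraries. Ighv9 held 6.85% ± 0.533 in Tmem175-/- libraries and 2.86% ± 1.04 in WT libraries, and Ighv8 held 4.66% ± 0.400 in Tmem175-/- libraries and 1.97% ± 1.43 in WT libraries. Ighv5 held 9.24% ± 0.497 in Tmem175-/- libraries and 7.998% ± 1.77 in WT libraries, and Ighv3 held 6.95% ± 0.492 and 5.10% ± 2.12. The shares of Ighv14 were 5.41% ± 0.455 in Tmem175-/- libraries and 3.38% ± 1.71 in WT libraries, and those of Ighv2 were 4.26% ± 0.286 and 2.66% ± 1.24. The mean shares of Ighv6, Ighv7, Ighv10, Ighv4 and Ighv13 lay between 0.206% and 2.72% in Tmem175-/- libraries and between 0.279% and 3.01% in WT libraries, where single libraries ran from 0% of Ighv13 to 5.65% of Ighv6. Ighv11, with Ighv11-2 as its only counted segment here, was the family with the lowest ratio of Tmem175-/- to WT share. Ighv12, Ighv15 and Ighv16 have no segment above the threshold.

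Along the locus, the 31 segments among the first 61 Ighv genes from Ighm held 33.7% ± 1.12 of Ighv counts in Tmem175-/- libraries and 29.6% ± 3.89 in WT libraries. The 22 segments among genes 62 to 122, which include Ighv1-26, held 29.8% ± 0.919 in Tmem175-/- libraries and 41.8% ± 3.89 in WT libraries. Ighv1-26 alone made up most of that difference, so it is not shown to be a trait of this part of the locus. The 30 segments among genes 123 to 183 held 36.4% ± 0.760 in Tmem175-/- libraries and 28.6% ± 4.33 in WT libraries. The order was taken from RefSeq, without coordinates, since the annotation and the counts use different builds.

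Each segment's level was compared with edgeR's quasi-likelihood test, fitted to all 14099 genes that passed the low-count filter, with Benjamini-Hochberg adjustment; all 83 segments passed. Without antigen 82 segments were higher in Tmem175-/- than in WT and 0 were lower, where 9.62% of all tested genes were called higher and 7.25% lower. With antigen 83 were higher and 0 lower (7.7% and 7.62% of all tested genes). With antigen and IL-1beta 82 were higher and 0 lower (7.22% and 6.55% of all tested genes), and with antigen and IL-18 82 were higher and 0 lower (9.89% and 10.3%). The threshold favoured segments high in Tmem175-/- libraries, so nothing is read from these counts. Median log2 fold changes over the 83 segments were 5.70, 5.46, 5.42 and 5.82 in that order, against 0.01, 0.00, 0.00 and 0.01 over all tested genes. With the 9 to 12 segments that had no count in the WT group set to a floor of 3 counts over the group, the medians were 5.31, 5.09, 5.28 and 5.596.

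The 8 segments that reach the threshold in WT libraries alone do not owe their membership to Tmem175-/- libraries. Ighv1-26 was at 35.2, 23.7 and 29.0 CPM in Tmem175-/- libraries without antigen, against 3.16, 2.65 and 2.66 CPM in WT libraries without antigen, a log2 fold change of 3.38 ± 0.233 (SE; edgeR adjusted p 8.68e-09). With antigen it was at 38.6, 32.2 and 35.6 CPM in Tmem175-/- libraries and 2.26, 1.47 and 3.25 CPM in WT libraries (log2 fold change 3.95 ± 0.236, edgeR adjusted p 1.47e-09). Ighv1-26 thus had the higher level but the lower share in Tmem175-/- co-cultures. Ighv1-85 was at 6.19, 4.95 and 5.48 CPM in Tmem175-/- libraries without antigen and at 0.493, 0.772 and 1.23 CPM in WT libraries without antigen (log2 fold change 2.73 ± 0.338, edgeR adjusted p 4.88e-06). Its log2 fold changes in the 3 antigen conditions were 3.02 with antigen, 2.34 with IL-1beta and 2.78 with IL-18.

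The smallest called differences without antigen, among segments at 1 CPM or more in 1 group, were those of Ighv1-47, Ighv1-34, Ighv11-2, Ighv1-15 and Ighv1-85, with log2 fold changes of 1.90 to 2.73. Ighv1-47 and Ighv1-85 were also among the 5 smallest in each of the antigen conditions. The largest fitted differences fell on segments with no or almost no WT counts, for which a fitted fold change is no bound. Such segments met the threshold through the Tmem175-/- libraries alone, so their values are given as a description that supports nothing. Ighv1-52 had 453 counts in Tmem175-/- libraries without antigen and 0 in WT libraries without antigen, at least 143-fold higher against a floor of 3 counts over the WT group. Ighv2-2 had 677 counts in Tmem175-/- libraries with antigen and IL-18 and 0 in the WT libraries of that condition, at least 226-fold higher. Ighv1-9 had WT counts in every library, but only 1 to 13 of them, and it too met the threshold through the Tmem175-/- libraries alone. Its log2 fold changes, likewise only a description, were 7.42 without antigen, 6.48 with antigen, 7.68 with IL-1beta and 7.15 with IL-18. Ighv1-5 was not called without antigen, at a log2 fold change of 1.41 ± 0.635 (edgeR adjusted p 0.143).

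Ighv11-2 had the smallest difference between the genotypes in each of the 3 antigen conditions, and it was higher with antigen in WT co-cultures. Without antigen it was at 1.33, 1.01 and 1.03 CPM in Tmem175-/- libraries and 0.197, 0.193 and 0.295 CPM in WT libraries (log2 fold change 2.27 ± 0.489, edgeR adjusted p 0.00141). With antigen it was at 2.42, 1.14 and 1.81 CPM in Tmem175-/- libraries and 0.903, 0.712 and 0.838 CPM in WT libraries (log2 fold change 1.16 ± 0.338, edgeR adjusted p 0.0186). The groups did not overlap in either condition, but with antigen the call was lost without the first Tmem175-/- library (edgeR adjusted p 0.126) and without the second or the third WT library (0.0840 and 0.0530).

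With IL-1beta added to antigen, Ighv11-2 was at 2.09, 1.70 and 1.44 CPM in Tmem175-/- libraries and 1.60, 0.856 and 1.70 CPM in WT libraries, and the groups overlapped (log2 fold change 0.36 ± 0.308, edgeR adjusted p 0.522). With IL-18 it was at 2.71, 1.07 and 2.20 CPM in Tmem175-/- libraries and 1.57, 1.18 and 0.700 CPM in WT libraries, again with overlap (log2 fold change 0.82 ± 0.310, edgeR adjusted p 0.0614). That comparison passed without the second Tmem175-/- library (edgeR adjusted p 0.00973) and without the first WT library (0.0347). It also passed with no low-count filter (0.00846) and with the replicate number as a block (0.0144).

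Antigen against no antigen raised Ighv11-2 in WT co-cultures by a log2 fold change of 1.80 ± 0.523 (edgeR adjusted p 0.00352), with 16, 17 and 17 counts in libraries with antigen and 4, 4 and 6 in those without. Leaving out each library in turn kept the call, with adjusted p up to 0.0164. Its share of Ighv counts was 5.54%, 5.65% and 3.64% in WT libraries with antigen, against 1.47%, 1.49% and 1.69% in WT libraries without antigen. With antigen and IL-1beta the share was 8.86%, 4.71% and 8.98%, and with antigen and IL-18 it was 8.33%, 6.62% and 3.89%. In Tmem175-/- co-cultures the antigen difference was 0.69 ± 0.317 on the log2 scale (edgeR adjusted p 0.0572). The difference between these 2 responses was -1.11 ± 0.626 on the log2 scale, Tmem175-/- minus WT (edgeR adjusted p 0.325), so the responses are not shown to differ.

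**Figure D5:**
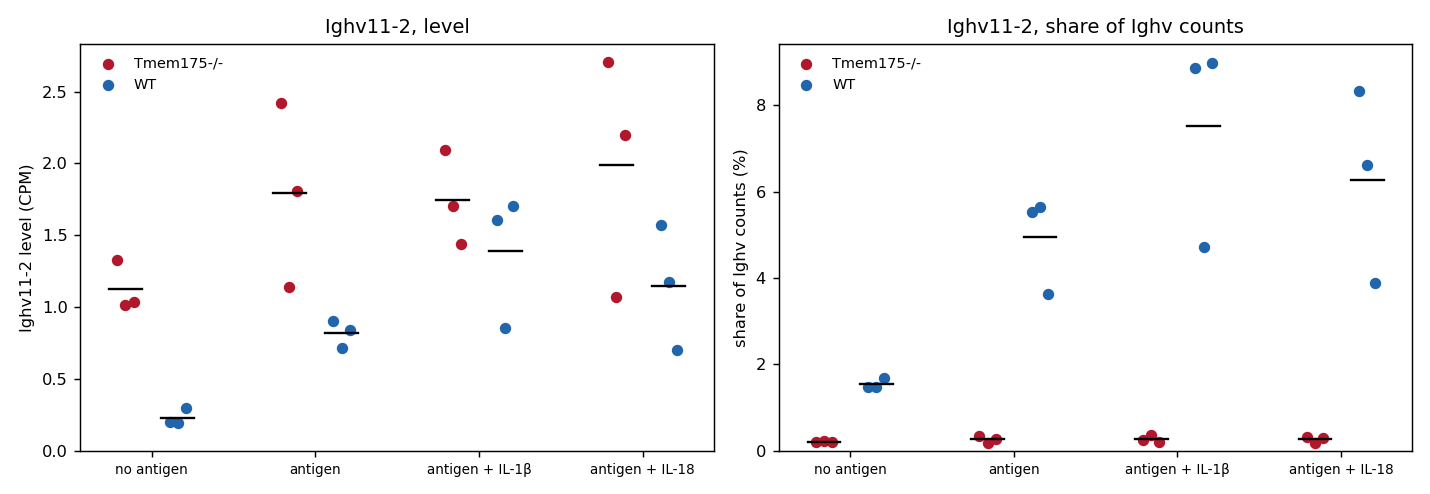
Ighv11-2 in each library as level (left, CPM) and as share of Ighv counts (right, %). Points are libraries, bars are means of 3, and Tmem175-/- libraries stand left of WT libraries. WT levels are lowest without antigen, at 0.193 to 0.295 CPM, while the share is at most 0.360% in Tmem175-/- libraries and at least 1.47% in WT libraries.

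Among all segments, antigen against no antigen in Tmem175-/- co-cultures gave 13 higher and 0 lower, where 33.8% of all tested genes were called higher and 34.6% lower. The count is 15.7% of the segments. The 13 were Ighv2-3, Ighv14-4, Ighv1-34, Ighv1-58, Ighv1-61, Ighv1-69, Ighv4-1, Ighv1-81, Ighv1-53, Ighv8-12, Ighv1-9, Ighv9-2 and Ighv1-7, with log2 fold changes of 1.38 for Ighv2-3 down to 0.38 for Ighv1-7. Ighv1-9 was at 45.5, 34.5 and 42.0 CPM in Tmem175-/- libraries with antigen and 32.0, 25.1 and 29.7 CPM in those without (log2 fold change 0.49 ± 0.156, edgeR adjusted p 0.00965). Of the 83 segments 70 had a positive difference, with a median of 0.31 against 0.01 over all tested genes. The count was 6 without the third no-antigen library, 6 without the first antigen library and 26 without the first no-antigen library. It was higher still with the replicate number as a block, and the labels do not say whether the numbers pair libraries.

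In WT co-cultures antigen gave 2 higher and 0 lower (33.5% of all tested genes were called higher and 34.5% lower), Ighv11-2 and Ighv1-66. Ighv1-66 had 2, 4 and 0 counts in WT libraries with antigen and none in those without (edgeR adjusted p 0.0433), at or near the floor, so no fold is given. That call was lost in 5 of the fits that left out 1 library. Ighv1-26 was not called for antigen in either genotype, with a log2 difference of 0.27 ± 0.157 in Tmem175-/- co-cultures and -0.30 ± 0.366 in WT co-cultures (edgeR adjusted p 0.132 and 0.481). No segment was called for the difference of the antigen responses between genotypes (8.39% of all tested genes were called in either direction by edgeR). None had an unadjusted p under 0.05 there, and DESeq2 called 3.

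Adding a cytokine to antigen called no segment in either genotype by this edgeR fit or by DESeq2. With no low-count filter edgeR called 2 for IL-18 in Tmem175-/- co-cultures. At an unadjusted p under 0.05 there were 3 segments with IL-1beta and 5 with IL-18 in Tmem175-/- co-cultures, and 5 and 3 in WT co-cultures. Few genes of any kind were called in these comparisons, at 0.0426% and 0.213% of all tested genes in Tmem175-/- co-cultures and 0.0567% and 0% in WT co-cultures. All comparisons with antigen alone share those libraries.

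The constant region genes gave the isotypes of the heavy chains. Ighm, the constant region of IgM, was at 84.5, 79.6 and 74.7 CPM in Tmem175-/- libraries without antigen and 77.0, 85.6 and 85.5 CPM in WT libraries without antigen, and was not called (log2 fold change -0.06 ± 0.176, edgeR adjusted p 0.892). With antigen it was at 110, 78.9 and 93.0 CPM in Tmem175-/- libraries and 30.5, 28.6 and 34.1 CPM in WT libraries. Ighg2c, the switched constant region of IgG2c, was at 514, 366 and 392 CPM in Tmem175-/- libraries without antigen and 0.543, 0.869 and 0.935 CPM in WT libraries without antigen (log2 fold change 9.07 ± 0.364, edgeR adjusted p 1.67e-11). Ighg2b, Ighg1 and Igha, of IgG2b, IgG1 and IgA, were also higher in Tmem175-/- libraries without antigen, with log2 fold changes of 7.85, 5.59 and 3.78. Ighd, of IgD, was lower, at 0.393, 0.0533 and 0.135 CPM in Tmem175-/- libraries and 0.839, 1.11 and 1.43 CPM in WT libraries without antigen (log2 fold change -2.49 ± 0.404, edgeR adjusted p 4.36e-05). In the antigen conditions Ighd was not called, with log2 fold changes of -0.51 with antigen, -0.04 with IL-1beta and 0.18 with IL-18 (edgeR adjusted p 0.250, 0.960 and 0.715), and with either cytokine the groups overlapped.

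Ighm made up 4.74% ± 0.459 of heavy chain constant region counts over the 12 Tmem175-/- libraries. In WT libraries it made up 75.6% ± 3.24 without antigen and 50.5% to 54.4% in the means of the 3 antigen groups. The ratio of Ighv counts to constant region counts was 0.342 ± 0.00885 over the 12 Tmem175-/- libraries and 0.266 ± 0.0823 over the 12 WT libraries. In WT it was 0.133 ± 0.0144 without antigen and 0.295 to 0.319 in the means of the antigen groups. With Ighm left out the ratio was 0.359 ± 0.00879 in Tmem175-/- libraries and 0.626 ± 0.0603 in WT libraries, so the order of the genotypes turned round. In WT libraries without antigen, Ighm RNA was thus as abundant as in Tmem175-/- libraries while Ighv counts were few. The light chain constant gene Igkc was at 541 to 1056 CPM in Tmem175-/- libraries and 11.1 to 20.9 CPM in WT libraries.

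Marker lists of cell types that co-cultures could hold were read beside these values. The 12 plasma cell markers summed to 529 to 720 CPM in Tmem175-/- libraries and 423 to 458 CPM in WT libraries, and none of the 12 was at 0 in every library. Of the 11 tested, 7 were higher in Tmem175-/- and 0 lower without antigen, where 9.62% of all tested genes were higher and 7.25% lower. With antigen 6 were higher and 1 lower (7.7% and 7.62% of all tested genes), with IL-1beta 7 and 2 (7.22% and 6.55%), and with IL-18 7 and 1 (9.89% and 10.3%). These shares of all tested genes apply to each list below. The largest part of the gap in the sum was Jchain, which links secreted IgM and IgA. It was at 114 to 220 CPM in Tmem175-/- libraries and 4.69 to 9.45 CPM in WT libraries. Xbp1, another large part of the sum, had medians of 168 CPM in Tmem175-/- libraries and 152 CPM in WT libraries. Mzb1, a folding helper of antibody-secreting cells, was at 0.547 to 1.38 CPM in Tmem175-/- libraries and 0 to 0.126 CPM in WT libraries, of which 5 had no count. Sdc1, the plasma cell surface proteoglycan CD138, was higher in Tmem175-/- without antigen (log2 fold change 0.46) and lower in the antigen conditions (-0.42, -0.36 and -0.28 with antigen, IL-1beta and IL-18). Txndc5, a protein disulfide isomerase, was lower with IL-1beta (-0.13).

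The 11 B cell markers summed to 64.9 to 79.3 CPM in Tmem175-/- libraries and 50.7 to 61.2 CPM in WT libraries, and none was at 0 in every library. Most of that sum was Cd22, an inhibitory receptor of B cells, at 43.7 to 66.9 CPM in Tmem175-/- libraries and 33.3 to 42.7 CPM in WT libraries. Of the 9 tested, 1 was higher in Tmem175-/- without antigen (Cd22) and 3 were lower (Pax5, Blk and Cd79b), against 9.62% and 7.25% of all tested genes. The direction of the calls changed with treatment, with 2 higher and 2 lower with antigen, 3 and 1 with IL-1beta, and 4 and 0 with IL-18. The 4 with IL-18 were Cd22, Ms4a1, Cd79a and Vpreb3. Pax5, which maintains B cell identity, was at 0.18 to 1.46 CPM in Tmem175-/- libraries and 1.045 to 2.61 CPM in WT libraries, with a log2 fold change of -2.82 ± 0.397 without antigen (edgeR adjusted p 5.39e-06). The T cell markers summed to 32.3 to 129 CPM in Tmem175-/- libraries and 30.5 to 172 CPM in WT libraries. Cd28 set the top of these ranges, at up to 109 CPM in Tmem175-/- and 149 CPM in WT libraries, with medians of 8.19 and 8.23. Of those 12 markers 0 were higher and 2 lower in Tmem175-/- without antigen, against 9.62% and 7.25% of all tested genes. With antigen 1 was higher and 1 lower, with IL-1beta 1 and 0, and with IL-18 0 and 0. Their median log2 fold change was -0.23 without antigen, 0.39 with antigen, 0.31 with IL-1beta and 0.38 with IL-18.

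Some markers of myeloid cells also differed between the genotypes. The 8 macrophage markers summed to 12543 to 17773 CPM in Tmem175-/- libraries and 17861 to 24286 CPM in WT libraries, without overlap. The largest part of that gap was Lyz2, the lysozyme of myeloid cells. It was lower in Tmem175-/- in all 4 conditions, at 5877 to 8320 CPM in Tmem175-/- libraries and 11027 to 15387 CPM in WT libraries. Median log2 fold changes over the 8 markers were -0.10 without antigen, -0.02 with antigen, 0.03 with IL-1beta and 0.12 with IL-18, so the list as a whole was not lower. Per condition 2 or 3 of the 8 were higher and 1 or 2 lower, and Cd68 was among the higher ones in all 4. The 8 neutrophil markers summed to 421 to 1364 CPM in Tmem175-/- libraries and 349 to 1368 CPM in WT libraries. Of these, 0 were higher and 1 lower without antigen, 2 and 0 with antigen, 7 and 0 with IL-1beta, and 6 and 0 with IL-18. Over all tested genes 9.62%, 7.7%, 7.22% and 9.89% were higher and 7.25%, 7.62%, 6.55% and 10.3% lower in that order. The 6 dendritic cell markers summed to 3.19 to 8.18 CPM in Tmem175-/- libraries and 6.47 to 13.1 CPM in WT libraries, and of 5 tested 3, 1, 2 and 3 were lower in the same order and 0 higher. NK cell markers summed to 6.39 to 8.84 CPM in Tmem175-/- libraries and 5.82 to 10.9 CPM in WT libraries, and erythroid and melanoma markers were each under 1 CPM in every library. The part that cell composition has in the Ighv differences was not tested.

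Of 49 genes of recombination, receptor assembly, switching, B cell transcription and antibody secretion, 42 were tested. Without antigen 8 were higher and 6 lower in Tmem175-/- than in WT, against 9.62% and 7.25% of all tested genes, with a median log2 fold change of 0.02 against 0.01 over all tested genes. With antigen 8 were higher and 7 lower, with IL-1beta 10 and 5, and with IL-18 11 and 7. The higher ones without antigen included Jchain, Mzb1 and Derl3, of antibody assembly, and Pou2af1, a coactivator of immunoglobulin promoters (log2 fold change 2.35). The lower ones included Ebf1 and Spib, transcription factors of B cells (-1.53 and -1.86). None of the 5 tested recombination genes was called without antigen. Rag2, needed for V(D)J joining, was at 0 in 20 of 24 libraries, and Rag1 was at 0 to 0.161 CPM in Tmem175-/- libraries and 0.0407 to 0.444 CPM in WT libraries.

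The genes outside the immunoglobulin loci whose log2 CPM followed the Ighv total most closely over the 24 libraries were Gm15446, Amd2, Lrmda, Cpne8 and Epcam, with Pearson r of 0.992, 0.988, 0.985, 0.973 and 0.971. The 24 points fall into 2 clusters, the genotypes, so these values describe that split. Gm15446 was at 7.51 to 19.7 CPM in Tmem175-/- libraries and 0 to 0.101 CPM in WT libraries.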

How the data were processed

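Poly(A) RNA was extracted with Trizol, per the labels' protocols, and the authors deposited raw counts per gene for 24 libraries in 1 table. The submitters' processing notes name fastp (no version) and GRCm39; aligner, counter, annotation and strandedness are not given in the sources used here. Of 55487 genes listed, 346 had no symbol. Library totals ran from 17744540 to 24898552 counts, and the biological coefficient of variation was 5.01%.

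Groups came from the sample titles. edgeR 4.0.16 (R 4.3.3) was run on filterByExpr genes (14099, with 99.94% of counts) with TMM factors, a robust quasi-likelihood fit of all 24 libraries, 1 coefficient per group and 16 residual degrees of freedom; calls have a Benjamini-Hochberg adjusted p under 0.05 within a comparison. The fit was tested on simulated data. DESeq2 1.42.0 was an alternative. CPM of single genes use TMM factors; the summed Ighv level uses plain library totals. Shares, evenness (unbiased Simpson number, rarefaction to 269 counts), Morisita overlap and ratios are descriptions without tests. Intervals are exact binomial at 95%.

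Segments and lists were chosen with earlier results of these data known. A gene of the B cell marker list is not reported here and was left out of that list's values. Named were the 15 segments with the highest mean share, those beside the threshold, uncalled ones, per comparison up to 5 called segments at each end of the fold changes, and segments known for a specificity. Sequences came from GENCODE vM21 (GRCm38), and gene order along the locus from RefSeq. Alternatives were other normalizations, no filter, a replicate block, only the groups compared, each library left out, and other membership thresholds and estimators.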

Additional observations from a re-analysis of the deposited data

Results flagged for a closer look

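Ighv12-3, which like Ighv11-2 is known from B-1a antibodies that bind phosphatidylcholine, lay below the threshold of 100 counts and enters no comparison. It had 55 counts over the 12 Tmem175-/- libraries, with at least 1 in each, and 13 counts over the 12 WT libraries, with counts in 5 of them. This is signal in a row outside the main measurement. It came to 0.0338% of all Ighv counts in Tmem175-/- libraries and 0.297% in WT libraries. The difference was not tested.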

How the results depend on the processing

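The counts of segments called between genotypes changed little: leaving out 1 library gave 82 without antigen, 80 to 82 with antigen, 81 to 82 with IL-1beta and 81 to 83 with IL-18. For antigen against none in Tmem175-/- co-cultures, 13 segments were called, 30 with the replicate number as a block and 6 to 26 with 1 library left out. In WT co-cultures 2 were called, 14 by DESeq2 (11 higher, 3 lower), 4 with no filter, 4 with the replicate block, 1 with only the groups compared and 1 to 4 with 1 library left out. For IL-18 added to antigen in Tmem175-/- co-cultures 0 were called, 2 with no filter and 2 with the replicate block. For the difference of antigen responses DESeq2 called 3. The labels do not say whether the numbers pair the samples. Over all tested genes, correlations of same-numbered deviations were all positive, from 0.00157 to 0.229, and in 0 of 10 comparisons was every pair over 0.1. The Ighv total of Tmem175-/- libraries was nevertheless highest in replicate 1 and lowest in replicate 2 in each condition. A shared source of same-numbered libraries is thus not excluded for these segments, and the main fit does not model one.

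The effective number was 40.0 in Tmem175-/- and 20.7 in WT libraries. It was 33.7 and 14.1 with a threshold of 1000 counts, 4.53 and 4.62 with 100 counts in WT libraries, 53.6 and 33.1 by Shannon, and 41.3 and 32.8 without the top segment. The Ighv to constant ratio without Ighm was 0.359 and 0.626. The WT summed level was 13.3 CPM with the threshold of 1000. For 52 differences of 23 named segments, counting each fit with a library left out by itself, 575 of 622 alternative fits kept the side of the threshold, 42 lost and 5 gained a call, and 0 reversed. Ighv11-2 with IL-18, Tmem175-/- against WT, was among those gained with the replicate block (edgeR adjusted p 0.0144). The cause of these changes was not tested. WT libraries, at 269 to 467 Ighv counts, limit what can be said of rare segments.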

Other observations

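Kappa light chain variable segments (Igkv), which pair with the heavy chains, were also far more abundant in Tmem175-/- co-cultures, with 14395 to 29551 counts per library, against 335 to 583 in WT libraries. The ratio of Ighv to Igkv counts was 0.612 ± 0.0160 in Tmem175-/- libraries and 0.756 ± 0.0797 in WT libraries (SD, n = 12 each). Its ranges were 0.583 to 0.641 in Tmem175-/- libraries and 0.631 to 0.903 in WT libraries, which overlap slightly. These values were not tested.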
